A study of Homo sapiens with 23 samples.

Results

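The nuclear lamina and the HMGB chromatin proteins were followed at the mRNA level in A549 cells, an established lung carcinoma epithelial line, after depletion of THUMPD3. The group held 10 genes, of the 61806 genes listed for the first 17 libraries and the 42901 genes listed for 6 deeply sequenced libraries. The 10 genes were chosen by name with no threshold on a measured value, but with earlier results of these data known. They were the lamins *LMNA*, *LMNB1* and *LMNB2*, the inner nuclear membrane genes *LBR*, *TMPO*, *EMD*, *SUN1* and *SUN2*, and *HMGB1* and *HMGB2*, and all 10 were found in both tables. THUMPD3 is a methyltransferase that modifies guanosines of tRNA. It was depleted with the siRNA siD3 #3 (harvest on day 5, 3 libraries, against 2 siControl libraries analysed here) or with the doxycycline-inducible lentiviral shRNAs shD3 #1 and shD3 #4 (day 6, 3 libraries each, against 3 libraries of sh1Control and 3 of sh4Control). The 6 deep libraries compared shD3 #1 with sh1Control, 3 libraries each, and no harvest day is given for them. The labels call the libraries of a group biological replicates, and they do not say whether the deep libraries came from the same cultures as the first ones. All groups were grown in the same base medium with serum, and the transduced cells had been selected with puromycin. Doxycycline was added to the medium to induce the shRNAs, and the methods call the compared samples untreated and treated. The sample titles do not say whether sh1Control and sh4Control received doxycycline. All libraries were made from rRNA-depleted total RNA with a directional kit.

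The lamina is a meshwork of A-type and B-type lamins under the inner nuclear membrane. *LMNA* encodes lamins A and C, and *LMNB1* and *LMNB2* encode lamins B1 and B2, which stay anchored to the membrane by a farnesyl group. LBR and the LAP2 proteins encoded by *TMPO* tether chromatin and lamins to the membrane, emerin (*EMD*) is a LEM-domain protein, and SUN1 and SUN2 belong to the LINC complex, which joins the nucleus to the cytoskeleton. HMGB1 and HMGB2 are abundant proteins that bend DNA. In cultured cells, loss of lamin B1 and of HMGB2 is widely used as a sign of senescence, and *LBR*, *TMPO* and *HMGB2* are known to be higher in cycling cells.

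Library totals ran from 9854294 counts (shD3 #1 replicate 3) to 22101059 in the first table and from 27285889 to 59974740 in the deep table. The targeted gene, *THUMPD3*, stood below its controls in each knockdown library. It stood at 17.1% of its control level under siD3 #3, at 31.4% under shD3 #4, at 51.1% under shD3 #1 and at 49.6% in the deep shD3 #1 libraries. The cell line label was checked on 6 epithelial markers. *KRT7*, *KRT8* and *KRT18* were the highest, with at least 917 cpm (counts scaled to a common library size) in every library of the first table. *CDH1* lay between 38.4 and 156.5 cpm there, *KRT19* between 19.9 and 129 cpm and *EPCAM* between 1.985 and 20.4 cpm. *CDH1* was called lower under shD3 #1 and in the deep libraries (log2 fold change -1.39 in both), and *KRT7* under shD3 #4 (-0.83). Of the 6, 2 were called higher under shD3 #1, 4 in the deep libraries and 1 under siD3 #3. *AKR1B10*, an enzyme that is high in A549 cells, lay between 1168 and 2603 cpm in the first table. *AKR1C2* lay between 586 and 1766 cpm there, *NQO1* between 729 and 1285 cpm and *AKR1C1* between 139 and 523 cpm. *AKR1C2* was called lower under shD3 #1 (-1.17, SE 0.05, adjusted p = 6.91e-11) and in the deep libraries (-0.77, SE 0.06, adjusted p = 5.49e-08). *AKR1C1* was called higher under shD3 #4 (1.02, SE 0.07, adjusted p = 3.85e-12). The leukocyte genes *PTPRC* and *CD3E* had at most 4 counts in any library, and the fibroblast gene *DCN* at most 1. *CD14*, also a leukocyte marker, lay between 1.96 and 4.85 cpm in the first table and between 4.27 and 7.21 cpm in the deep table, and was called lower under shD3 #1 (log2 fold change -0.79, SE 0.19, adjusted p = 0.00226). The endothelial marker *CDH5*, at most 1.20 cpm in the first table, was called higher under shD3 #4 (1.64, SE 0.40, adjusted p = 0.00163) and in the deep libraries (1.21, SE 0.36, adjusted p = 0.00941). The summed cpm of the 4 fibroblast markers, mostly *COL1A1* and *LUM*, was higher in each knockdown (9.45 to 11.2 under shD3 #1 against 5.57 to 7.04). The part of these markers in the results was not tested. Levels are given below as cpm after TMM scaling. In bulk libraries, fewer cells with a transcript and less of it in each cell cannot be told apart.

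Levels of different genes were compared per kilobase of the canonical transcript. In the 8 control libraries of the first table *LMNA* was highest, with a median of 103 cpm per kb (range 95.9 to 121). *TMPO* followed at 85.8 cpm per kb and *HMGB2* at 48.1 cpm per kb, and the ranges of these 3 genes did not overlap. *LMNB1* (40.7), *LBR* (39.6), *LMNB2* (37.1), *HMGB1* (32.0), *SUN1* (25.1), *EMD* (18.3) and *SUN2* (14.8 cpm per kb) came next, and each of these overlapped its neighbour in the order. In the 3 deep control libraries *LMNA* was again highest (110 cpm per kb) and *SUN2* again lowest (18.3 cpm per kb), but *HMGB2* stood at 28.1 and *EMD* at 39.0 cpm per kb. The tables were counted and scaled separately, so levels were compared only within a table.

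The first question was which lamina and HMGB mRNAs changed in each knockdown. A gene was called when its Benjamini-Hochberg adjusted p in edgeR's quasi-likelihood test was under 0.05 over all genes tested and its fold was at least 1.5, a log2 fold change of 0.58 in size. Under siD3 #3, 7 of the 10 genes were called lower (*LMNB1*, *LMNB2*, *LBR*, *TMPO*, *SUN2*, *HMGB1* and *HMGB2*), against 9.42% of all genes tested. Under shD3 #1, 5 were called lower (*LMNB1*, *LMNB2*, *TMPO*, *SUN1* and *HMGB2*), against 14.6% of all genes. Under shD3 #4, 1 was called lower (*HMGB1*), against 4.50% of all genes, and *LMNB1*, *LMNB2* and *HMGB2* had log2 fold changes between -0.53 and -0.58. That count rests on genes near the limit and was 4 without sh4Control replicate 3, 3 without shD3 #4 replicate 1 and 3 without shD3 #4 replicate 2. In the deep shD3 #1 libraries *LMNB1* was called lower, against 14.1% of all genes, and *LMNA* was called higher, against 15.0%. None of the 10 genes was called higher under siD3 #3 (12.5% of all genes were), shD3 #1 (14.5%) or shD3 #4 (8.00%). With the adjusted p alone, 7 genes passed under siD3 #3 (33.0% of all genes), 8 under shD3 #1 (56.5%), 6 under shD3 #4 (40.8%) and 10 in the deep libraries (62.6%). As the 10 genes were chosen with earlier results known, the shares of all genes are a background and not an independent test.

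The median log2 fold change of the 10 genes was -1.40 under siD3 #3, -0.59 under shD3 #1, -0.35 under shD3 #4 and -0.33 in the deep libraries, while the median of all genes tested stayed between -0.02 and 0.03. The ranges of treated and control samples were separate for 7 of the 10 genes under siD3 #3 (60.0% of all genes), 8 under shD3 #1 (62.1%), 7 under shD3 #4 (49.6%) and 10 in the deep libraries (67.1%). Separate ranges were thus common among all genes. No gene of the group was called lower in all 3 knockdowns of the first table, as 0.805% of all genes were. At the adjusted p alone 5 were lower in all 3 (*LMNB1*, *LMNB2*, *LBR*, *TMPO* and *HMGB2*), against 6.14% of all genes. Averaged over the 3 knockdowns in a joint model of the 17 libraries, these 5 and *HMGB1* were called lower (6.96% of all genes) and none was called higher (10.3%).

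**Figure D1:**
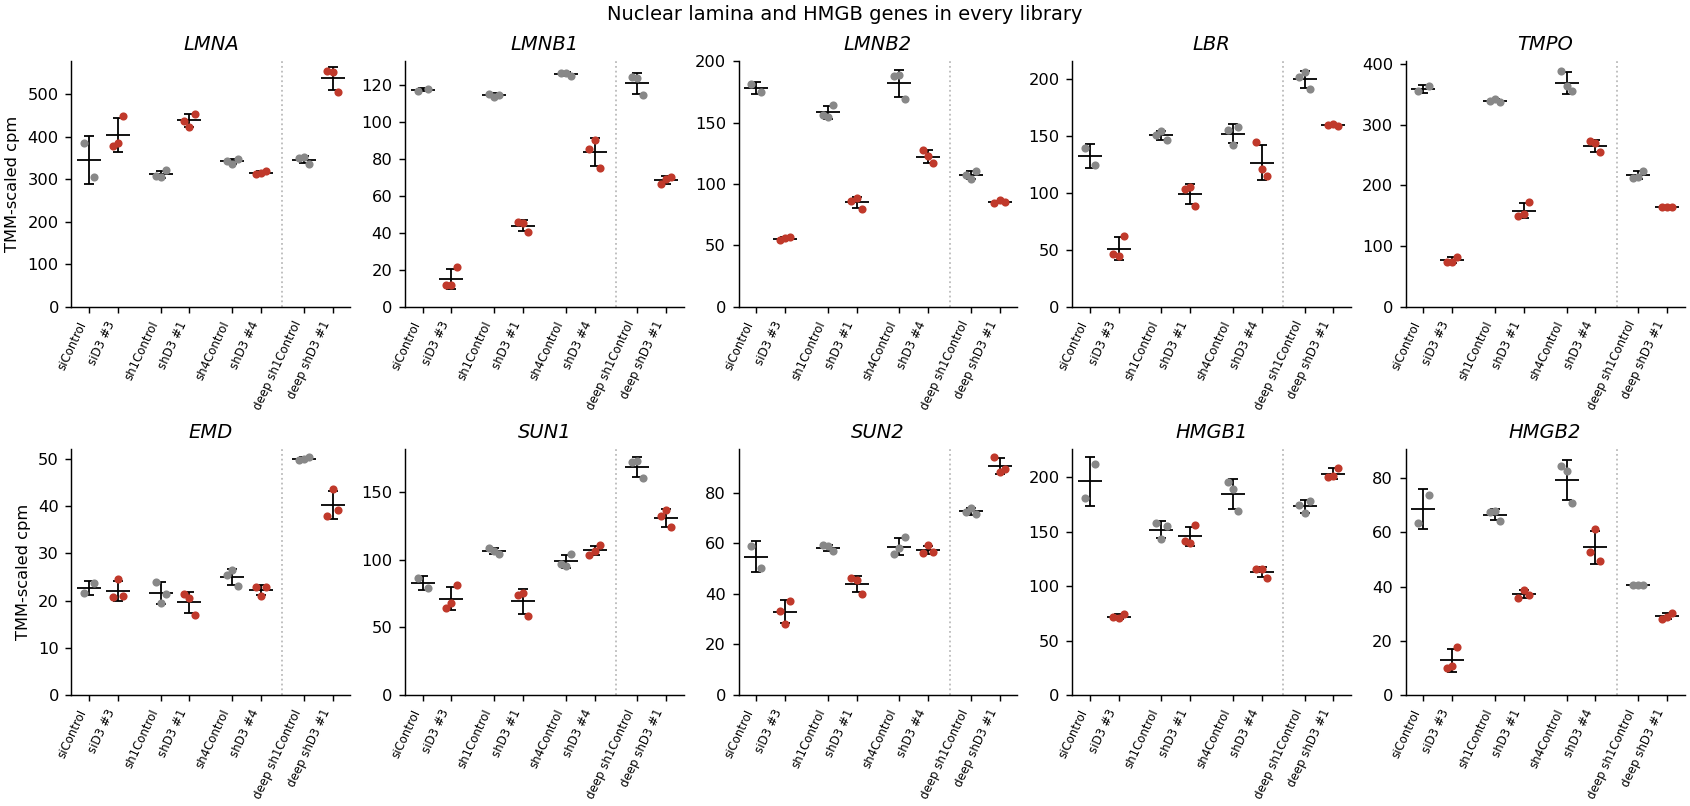
Level of each of the 10 genes in every library, in TMM-scaled cpm on axes that start at 0 (grey, control; red, THUMPD3 knockdown; black line and bars, mean and SD of the group; the dotted line separates the first table from the deep table). *LMNB1* sits between 11.6 and 21.6 cpm in the 3 siD3 #3 libraries and between 117 and 118 cpm in their 2 controls, while *EMD* overlaps its controls under siD3 #3 and shD3 #1.

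*LMNB1* (chr5:126776623-126837020, plus strand, GRCh38; 11 exons in the canonical transcript) had the largest fall of the group under siD3 #3, under shD3 #1 and in the deep libraries. In the siControl libraries it stood at 117 and 118 cpm, and in the siD3 #3 libraries at 12.0, 11.6 and 21.6 cpm. The 3 knockdown libraries were all far below the controls, and replicate 3 stood above the other siD3 #3 libraries. Its log2 fold change was -2.96 (SE 0.24, adjusted p = 1.06e-04), which left 12.9% of the control level. With shD3 #1 *LMNB1* went from 116, 114 and 115 cpm to 46.0, 45.3 and 40.7 cpm, a log2 fold change of -1.36 (SE 0.07, adjusted p = 1.14e-10). The shD3 #4 comparison ran from 127, 127 and 125 cpm to 85.7, 90.4 and 75.3 cpm. The shD3 #4 libraries did not overlap their controls, but the log2 fold change of -0.58 (SE 0.07, adjusted p = 1.85e-07) stayed just short of the 1.5-fold limit. In the deep libraries the level went from 125, 124 and 115 cpm to 66.6, 69.5 and 70.6 cpm (log2 fold change -0.81, SE 0.05, adjusted p = 2.52e-09).

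The promoters of the lamin and LAP2 genes that fell are shown because these genes moved together. They are the 250 bases before the RefSeq start on GRCh38.p14, 5′ to 3′ on the strand of the gene, with matches to CCAAT, to TTTGAA (the CHR letters of many cell cycle promoters) and to GCGGGAA or GCGCGAA (E2F letters) in capitals, on either strand.
LMNB1 (chr5:126776886-126777135, plus strand): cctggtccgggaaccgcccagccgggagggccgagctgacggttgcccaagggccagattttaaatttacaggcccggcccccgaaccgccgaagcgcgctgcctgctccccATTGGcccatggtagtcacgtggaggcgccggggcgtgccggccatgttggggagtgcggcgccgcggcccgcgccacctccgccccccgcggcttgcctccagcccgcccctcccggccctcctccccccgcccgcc
LMNB2 (chr19:2456960-2457209, minus strand): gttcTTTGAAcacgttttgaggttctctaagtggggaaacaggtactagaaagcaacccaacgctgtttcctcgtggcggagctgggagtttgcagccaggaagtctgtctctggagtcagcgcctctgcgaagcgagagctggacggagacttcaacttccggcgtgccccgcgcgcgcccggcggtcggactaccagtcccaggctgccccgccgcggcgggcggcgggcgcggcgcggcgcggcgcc
TMPO (chr12:98515340-98515589, plus strand): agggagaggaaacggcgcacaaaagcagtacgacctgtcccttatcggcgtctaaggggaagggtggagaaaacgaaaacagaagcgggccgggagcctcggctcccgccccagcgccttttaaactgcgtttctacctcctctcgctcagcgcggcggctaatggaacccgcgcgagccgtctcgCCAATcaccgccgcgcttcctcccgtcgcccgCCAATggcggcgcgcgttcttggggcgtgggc

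Windows of 8 of the 10 genes were matched by symbol. CCAAT was present in 5 of the 8 windows (*LMNB1*, *TMPO*, *EMD*, *SUN2* and *HMGB1*), against 32.0% of all 34788 such windows. In *LMNB1* it lay on the opposite strand, 138 to 134 bases before the start, and in *TMPO* it occurred 2 times, at 64 to 60 and at 32 to 28 bases before the start. TTTGAA was present in 2 of the 8 (*LMNB2* and *SUN2*), against 13.3% of all windows. The E2F letters were in none of the 8 and in 7.17% of all windows. The RefSeq starts used for *LMNA* and *LBR* lay 7995 and 783 bases away from the start of the canonical transcript, so their windows may not be the promoters in use. *EMD*, which was not called in any comparison, held 2 CCAAT matches, and no match overlapped another.

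*LMNB2* (chr19:2427638-2456959, minus strand), the gene of the other B-type lamin, fell with *LMNB1*. It stood at 181 and 175 cpm in siControl and at 54.3, 55.9 and 56.8 cpm in siD3 #3 (log2 fold change -1.68, SE 0.08, adjusted p = 1.00e-05). Under shD3 #1 it went from 156, 154 and 164 cpm to 86.5, 88.9 and 79.9 cpm (log2 fold change -0.87, SE 0.06, adjusted p = 9.47e-09). Under shD3 #4 the controls stood at 188, 189 and 169 cpm and the knockdown libraries at 127, 123 and 117 cpm, without overlap. The log2 fold change there was -0.56 (SE 0.07, adjusted p = 1.66e-07) and again stayed short of the limit. In the deep libraries it was -0.33 (SE 0.04, adjusted p = 1.19e-05).

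*LMNA* (chr1:156082573-156140081, plus strand), the gene of lamins A and C, was not called lower in any of the comparisons. In shD3 #1 cells it stood at 437, 424 and 454 cpm against 307, 305 and 322 cpm in the controls, all above them. Its log2 fold change of 0.51 (SE 0.06, adjusted p = 1.23e-06) was below the 1.5-fold limit. In the deep libraries it was called higher, at 553, 552 and 506 cpm against 349, 353 and 336 cpm (log2 fold change 0.63, SE 0.05, adjusted p = 2.31e-08). Under siD3 #3 the libraries stood at 378, 385 and 449 cpm and the controls at 384 and 305 cpm. These overlapped, and the value of 0.23 (SE 0.13, adjusted p = 0.22) did not pass the test. The shD3 #4 value was -0.10 (SE 0.06, adjusted p = 0.199).

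The balance between lamins was read within each library, per kilobase. The ratio of *LMNB1* to *LMNA* was 0.335 and 0.426 in siControl and 0.035, 0.0331 and 0.0529 in siD3 #3. It was 0.406 ± 0.0106 (SD, n = 3) in sh1Control and 0.111 ± 0.0104 in shD3 #1, and 0.406 ± 0.0105 in sh4Control and 0.293 ± 0.0296 in shD3 #4. The deep libraries went from 0.385 ± 0.00948 to 0.141 ± 0.0109. In each of the 4 comparisons every knockdown library was below every control library. The ratio of *LMNB1* to *LMNB2* was 1.06 ± 0.0354 (n = 2) in siControl and 0.433 ± 0.154 in siD3 #3, 1.16 ± 0.0344 in sh1Control and 0.829 ± 0.0208 in shD3 #1. Under shD3 #4 it was 1.10 ± 0.0759 against 1.12 ± 0.0612 in sh4Control, and the libraries overlapped.

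**Figure D2:**
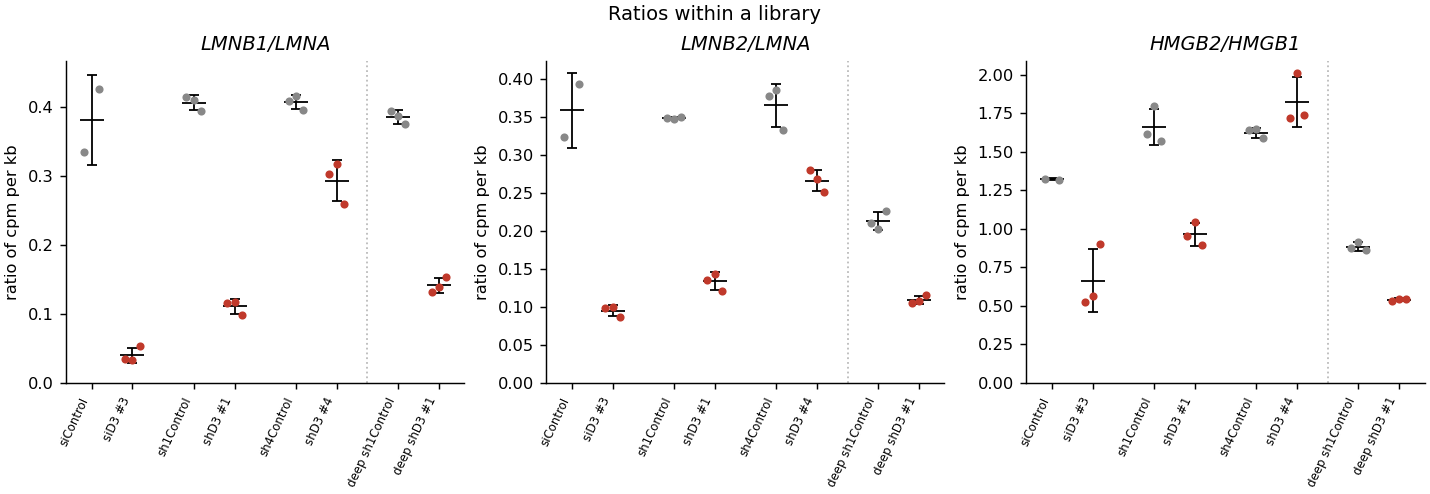
Ratios within each library of cpm per kb of canonical transcript, on axes that start at 0 (grey, control; red, knockdown; black line and bars, mean and SD; the dotted line separates the deep table). The *LMNB1* to *LMNA* ratio is between 0.0331 and 0.0529 in the siD3 #3 libraries and at least 0.335 in every control library, and *HMGB2* to *HMGB1* is lower in all knockdowns but shD3 #4.

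*TMPO* (chr12:98515579-98550351, plus strand), the LAP2 gene, was second to *LMNB1* in fall under shD3 #1. It stood at 355 and 364 cpm in siControl and at 74.0, 73.8 and 82.4 cpm in siD3 #3 (log2 fold change -2.22, SE 0.09, adjusted p = 6.88e-06). Under shD3 #1 it went from 339, 343 and 337 cpm to 150, 152 and 173 cpm (log2 fold change -1.08, SE 0.06, adjusted p = 1.22e-09). Under shD3 #4 its log2 fold change was -0.46 (SE 0.06, adjusted p = 2.84e-06) and in the deep libraries -0.39 (SE 0.04, adjusted p = 8.54e-07), and in both the libraries did not overlap. *TMPO-AS1*, an antisense lncRNA that overlaps the gene, fell too, with a log2 fold change of -2.83 under siD3 #3 (SE 0.24, adjusted p = 1.37e-04) and of -1.38 under shD3 #1 (SE 0.11, adjusted p = 5.09e-08). For *TMPO-AS1* it was -0.29 under shD3 #4 (SE 0.09, adjusted p = 0.0158) and -0.46 in the deep libraries (SE 0.09, adjusted p = 2.83e-04), both short of the 1.5-fold limit. Its counts were 1.37% to 4.00% of those of *TMPO* in the first table and 4.91% to 6.22% in the deep table. The strand setting of the counting is not given in the sources used here, so reads of the overlap cannot be told apart.

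*LBR* (chr1:225401502-225428925, minus strand), the lamin B receptor, stood at 140 and 125 cpm in siControl and at 46.0, 44.9 and 62.4 cpm in siD3 #3 (log2 fold change -1.37, SE 0.15, adjusted p = 4.57e-04). Under shD3 #1 it went from 150, 155 and 146 cpm to 103, 105 and 88.7 cpm. The libraries did not overlap, but the log2 fold change of -0.58 (SE 0.07, adjusted p = 2.53e-06) missed the limit by less than its SE. It was -0.24 (SE 0.07, adjusted p = 0.01) under shD3 #4, where the highest knockdown library overlapped the controls. It was -0.33 (SE 0.04, adjusted p = 8.54e-06) in the deep libraries.

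*EMD* (chrX:154379273-154381574, plus strand), the emerin gene, had the smallest change averaged over the 3 knockdowns (log2 fold change -0.11, SE 0.06, adjusted p = 0.115). Its log2 fold change was -0.04 (SE 0.12, adjusted p = 0.837) under siD3 #3, -0.11 (SE 0.10, adjusted p = 0.361) under shD3 #1 and -0.15 (SE 0.08, adjusted p = 0.117) under shD3 #4. Its control libraries there lay between 19.5 and 26.4 cpm. In the deep libraries it went from 49.8, 50.0 and 50.4 cpm to 37.9, 43.6 and 39.3 cpm (log2 fold change -0.32, SE 0.06, adjusted p = 2.09e-04).

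The SUN genes, whose proteins bind nesprins in the LINC complex, had r = 0.831 with each other over the 17 first libraries, and no comparison called both. *SUN1* (chr7:816615-896435, plus strand) was called lower under shD3 #1, at 73.9, 75.5 and 58.3 cpm against 109, 107 and 104 cpm (log2 fold change -0.59, SE 0.08, adjusted p = 1.35e-05). Replicate 3, the library with the fewest counts, was the lowest, and without it the log2 fold change was -0.49 (adjusted p = 6.00e-14) and the call was lost, as it was without sh1Control replicate 1 (-0.57) and with total counts in place of TMM (-0.52). Under shD3 #4 *SUN1* was 0.13 (SE 0.06, adjusted p = 0.114) and under siD3 #3 -0.21 (SE 0.12, adjusted p = 0.203). *SUN2* (chr22:38733290-38794143, minus strand) was called lower under siD3 #3, at 33.0, 28.2 and 37.3 cpm against 59.0 and 50.4 cpm (log2 fold change -0.73, SE 0.13, adjusted p = 0.00513). The shD3 #4 value was -0.02 (SE 0.07, adjusted p = 0.839).

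*SUN2* was the only gene of the group that went opposite ways in the first and the deep shD3 #1 libraries without overlap in either. In the first table it stood at 59.1, 58.8 and 56.9 cpm in sh1Control and at 46.2, 45.3 and 40.1 cpm in shD3 #1 (log2 fold change -0.39, SE 0.07, adjusted p = 1.91e-04). In the deep table it stood at 72.4, 74.0 and 71.4 cpm in sh1Control and at 93.9, 88.1 and 89.4 cpm in shD3 #1 (log2 fold change 0.32, SE 0.05, adjusted p = 2.37e-05). The annotation places 8 other genes across the *SUN2* locus, 2 of them protein-coding (*GTPBP1* and *DNAL4*). Cultures, sequencing and gene models may all differ between the tables and cannot be told apart.

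*HMGB2* (chr4:173331376-173334432, minus strand) fell with *LMNB1*. It stood at 63.3 and 73.8 cpm in siControl and at 9.96, 10.5 and 17.7 cpm in siD3 #3, where replicate 3 was again the highest (log2 fold change -2.42, SE 0.23, adjusted p = 2.20e-04). With shD3 #1 *HMGB2* went from 67.6, 67.8 and 64.3 cpm to 35.7, 38.7 and 37.0 cpm (log2 fold change -0.82, SE 0.07, adjusted p = 3.75e-08). In the shD3 #4 comparison it went from 84.6, 82.5 and 70.8 cpm to 52.8, 61.3 and 49.3 cpm. The groups did not overlap, and the log2 fold change was -0.53 (SE 0.08, adjusted p = 6.15e-06). In the deep libraries it was -0.48 (SE 0.05, adjusted p = 1.45e-06).

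*HMGB1* (chr13:30456704-30617597, minus strand) followed another order. Under siD3 #3 it fell from 181 and 212 cpm to 71.4, 70.6 and 74.3 cpm (log2 fold change -1.44, SE 0.10, adjusted p = 4.40e-05). Under shD3 #4 it fell from 196, 190 and 169 cpm to 116, 115 and 107 cpm (log2 fold change -0.69, SE 0.07, adjusted p = 7.24e-09). Under shD3 #1 it stood at 142, 140 and 156 cpm against 158, 143 and 155 cpm, and the libraries overlapped (log2 fold change -0.04, SE 0.07, adjusted p = 0.618). In the deep libraries it was 0.23 (SE 0.04, adjusted p = 2.25e-04). *HMGB1* has 48 annotated pseudogenes in the first table, whose summed counts were 15.3% to 20.7% of those of the gene, so reads shared with these copies make its level less certain than the others. The ratio of *HMGB2* to *HMGB1* per kilobase was 1.33 and 1.32 in siControl and 0.528, 0.566 and 0.901 in siD3 #3. It went from 1.66 ± 0.119 (SD, n = 3) to 0.966 ± 0.075 under shD3 #1 and from 0.886 ± 0.0294 to 0.541 ± 0.00861 in the deep libraries. Under shD3 #4 it was 1.82 ± 0.163 against 1.63 ± 0.0324, with every knockdown library above the controls.

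**Figure D3:**
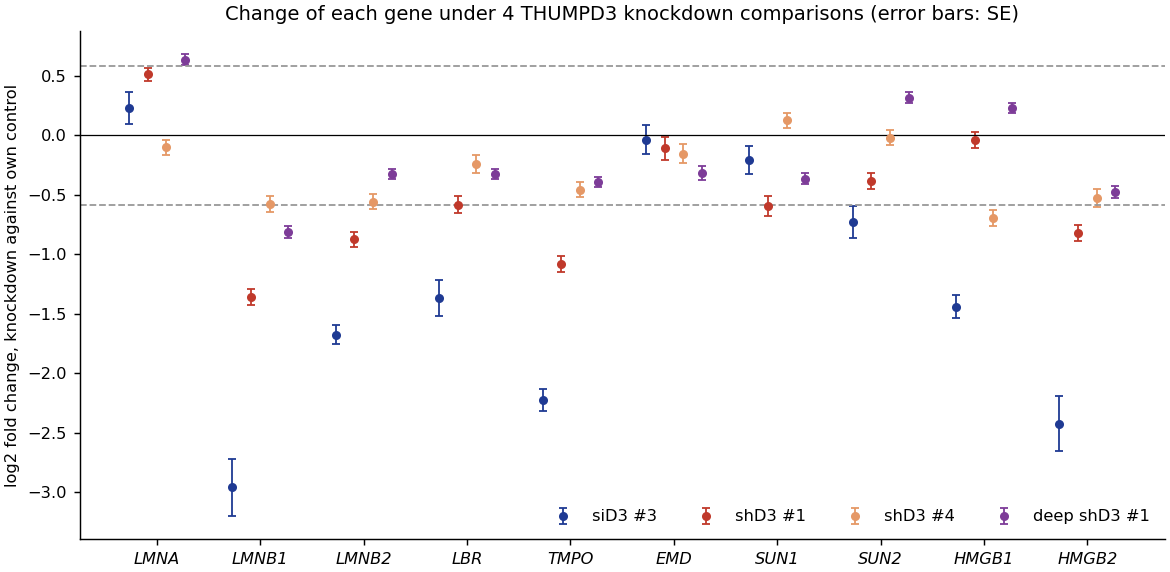
Log2 fold change of each gene (points, knockdown against its own control; bars, SE) in the 4 comparisons, with dashed lines at the 1.5-fold limit. The siD3 #3 points are the lowest for *LMNB1*, *LMNB2*, *LBR*, *TMPO*, *SUN2*, *HMGB1* and *HMGB2*, and *LMNA* is the only gene above 0.5.

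The second question was whether the knockdowns differed from each other, tested as the interaction in the joint model. The effect of siD3 #3 was more negative than that of shD3 #1 for 6 of the 10 genes past the call rule (25.4% of all genes in either direction), with differences in log2 fold change from -0.77 for *LBR* (SE 0.16, adjusted p = 7.59e-04) to -1.59 for *HMGB2* (SE 0.21, adjusted p = 4.38e-06). It was more negative than that of shD3 #4 for 7 genes (17.8% of all genes), from -0.70 for *SUN2* (SE 0.13, adjusted p = 3.72e-04) to -2.37 for *LMNB1* (SE 0.20, adjusted p = 1.20e-08). The shRNAs differed from each other for 5 genes (25.9% of all genes). Relative to shD3 #4, shD3 #1 was lower for *LMNB1* (-0.79, SE 0.19, adjusted p = 0.00193), *SUN1* (-0.73, SE 0.13, adjusted p = 1.21e-04) and *TMPO* (-0.63, SE 0.10, adjusted p = 3.40e-05). It was higher for *HMGB1* (0.65, SE 0.11, adjusted p = 6.13e-05) and *LMNA* (0.61, SE 0.11, adjusted p = 1.95e-04). *THUMPD3* itself was higher under shD3 #1 than under shD3 #4 by 0.70 on the same scale (SE 0.10, adjusted p = 1.17e-05). For *HMGB1* and *LMNA* the difference between the shRNAs thus had the sign of the *THUMPD3* difference. For *LMNB1*, *SUN1* and *TMPO* it had the opposite sign. Against its own controls *LMNA* was at 0.51 under shD3 #1 and at -0.10 under shD3 #4. *THUMPD3* differed by -1.56 for siD3 #3 minus shD3 #1 and by -0.86 for siD3 #3 minus shD3 #4. A relation of these genes to the *THUMPD3* level was not tested. *LMNB2*, *LBR* and *HMGB2* were not called different between the shRNAs. The siRNA and shRNA groups also differed in delivery and harvest day, which cannot be told apart from the knockdown itself. Where the shRNA controls went without doxycycline, its effect cannot be told apart from that of the shRNA either.

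The deep libraries repeat shD3 #1 at higher depth, and their values stand beside the first ones without a test between tables. *THUMPD3* was at 49.6% of its control there and at 51.1% in the first table. *LMNB1* was at 56.9% of its control in the deep and 39.0% in the first libraries, *LMNB2* at 79.7% and 54.6%, *TMPO* at 76.1% and 47.3%, and *HMGB2* at 71.8% and 56.6%. The summed cpm of 23 proliferation genes moved in the same order, from 4600-4704 cpm to 3138-3274 cpm in the deep and from 3943-4073 cpm to 1873-2011 cpm in the first libraries. *LMNA* was at 155% and 143% of its control.

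Other genes of the nuclear envelope and of related processes were followed in lists. Of 23 proliferation genes, 23 were called lower under siD3 #3 (median log2 fold change -3.05), against 9.42% of all genes. Under shD3 #1 18 were lower (-0.91), against 14.6% of all genes, and under shD3 #4 10 (-0.55), against 4.50%. In the deep libraries 6 were lower (-0.40), against 14.1%. None was called higher in any comparison, against 8.00% to 15.0% of all genes. The lowest was *AURKB*, a mitotic kinase, in all but shD3 #4 (-3.70 under siD3 #3, SE 0.29, adjusted p = 8.53e-05), where it was *MCM5*, a subunit of the replicative helicase (-0.87, SE 0.06, adjusted p = 5.97e-11). The highest was *TYMS*, thymidylate synthase, under siD3 #3 (-0.79, SE 0.10, adjusted p = 0.00112) and shD3 #1 (0.06, SE 0.08, adjusted p = 0.548). It was *CCNE2*, a cyclin, under shD3 #4 (-0.02, SE 0.10, adjusted p = 0.909) and *MCM6* in the deep libraries (0.09, SE 0.05, adjusted p = 0.0931). The summed level of this list in the siD3 #3 libraries was 540, 552 and 719 cpm, so replicate 3, which was highest for *LMNB1* and *HMGB2*, was highest here too. The part of cell cycle activity in the lamina and HMGB values was not tested.

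Of 32 nucleoporin genes, 19 were called lower (9.42% of all genes) and 1 higher (12.5% of all genes) under siD3 #3 (median -0.69). Under shD3 #1 6 were lower (-0.35), against 14.6% of all genes, and under shD3 #4 2 (-0.24), against 4.50%. In the deep libraries 2 were lower (-0.21), against 14.1% of all genes. *NDC1*, a transmembrane nucleoporin, was the lowest under siD3 #3 (-1.57, SE 0.10, adjusted p = 3.94e-05). *GLE1*, an mRNA export factor of the pore, was the lowest under shD3 #1 (-1.26, SE 0.07, adjusted p = 4.96e-10) and in the deep libraries (-0.99, SE 0.06, adjusted p = 1.74e-09), and *SEH1L* under shD3 #4 (-0.60, SE 0.08, adjusted p = 2.26e-06). *POM121C* was the only one called higher (0.61 under siD3 #3, SE 0.17, adjusted p = 0.0273). It is a near copy of *POM121*, and reads that map to both are not counted for either. *POM121C* was also the highest under shD3 #1 (0.33, SE 0.10, adjusted p = 0.0118), *POM121* was in the deep libraries (0.48, SE 0.06, adjusted p = 1.07e-05), and *NUP210* was under shD3 #4 (0.13, SE 0.08, adjusted p = 0.223).

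Of 19 other nuclear membrane and LINC genes, 5 were called lower (9.42% of all genes) and none higher (12.5%) under siD3 #3 (median -0.26). Under shD3 #1, 4 were lower (14.6% of all genes) and 3 higher (14.5%), with a median of -0.18. Under shD3 #4, 2 were called higher (8.00% of all genes) and none lower (4.50%), with a median of -0.01. In the deep libraries 1 of 18 tested was lower (14.1% of all genes) and 2 were higher (15.0%), with a median of -0.00. *NRM*, the gene of nurim, was lowest under siD3 #3 (-1.24, SE 0.24, adjusted p = 0.00646). *SYNE2*, which encodes a nesprin of the outer nuclear membrane that binds SUN proteins, was lowest under shD3 #1 (-1.38, SE 0.06, adjusted p = 5.97e-11) and was called higher under shD3 #4 (0.68, SE 0.08, adjusted p = 2.89e-07). In the deep libraries *SYNE2* was not called (-0.46, SE 0.06, adjusted p = 7.42e-06). *SYNE3*, another nesprin gene, was the highest in the 3 first comparisons but with at most 28 counts in a library. *TOR1AIP2* was the lowest in the deep libraries (-1.13, SE 0.04, adjusted p = 2.37e-11), *SYNE1* the highest (0.77, SE 0.06, adjusted p = 5.34e-08), and *TOR1A* the lowest under shD3 #4 (-0.58, SE 0.07, adjusted p = 1.75e-07).

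Of the 5 genes that farnesylate, cleave or methylate prelamins, 2 were called lower under siD3 #3 (9.42% of all genes) and 1 under shD3 #1 (14.6%). None was called lower under shD3 #4 (4.50% of all genes) and 2 were in the deep libraries (14.1%). None was called higher in any comparison, against 8.00% to 15.0% of all genes. *ICMT*, the carboxyl methyltransferase, was lowest under siD3 #3 (-1.01, SE 0.11, adjusted p = 5.40e-04), but was the highest of the list under shD3 #1 (0.20, SE 0.07, adjusted p = 0.0173) and in the deep libraries (0.40, SE 0.04, adjusted p = 1.16e-06). *RCE1*, an endoprotease that removes the end of farnesylated proteins, was lowest under shD3 #1 (-0.98, SE 0.09, adjusted p = 2.36e-07). *FNTB*, a subunit of farnesyltransferase, was lowest in the deep libraries (-2.18, SE 0.40, adjusted p = 2.31e-04) and under shD3 #4 (-0.18, SE 0.10, adjusted p = 0.151). In the deep libraries it had 2 to 6 counts in the knockdown and 32 to 40 in the control libraries, before scaling to the larger control totals. *FNTA*, the other subunit, was highest under siD3 #3 (-0.01, SE 0.09, adjusted p = 0.96) and shD3 #4 (0.09, SE 0.07, adjusted p = 0.325).

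Of 10 other HMG protein genes, 4 were called lower under siD3 #3 (median -0.48), against 9.42% of all genes. Under shD3 #1, 3 were lower (14.6% of all genes) and 1 higher (14.5%), with a median of -0.31. Under shD3 #4, 1 was lower (-0.23), against 4.50% of all genes. In the deep libraries 1 was lower (14.1% of all genes) and 1 higher (15.0%), with a median of -0.23. *HMGN2*, a nucleosome-binding protein gene, was lowest under siD3 #3 (-1.14, SE 0.09, adjusted p = 1.05e-04) and *HMGN1* under shD3 #1 (-0.77, SE 0.07, adjusted p = 7.41e-08) and in the deep libraries (-0.66, SE 0.06, adjusted p = 1.11e-07). *HMGA1*, which encodes an AT-hook protein, was the highest under shD3 #1 (1.25, SE 0.07, adjusted p = 3.47e-10) and the lowest under shD3 #4 (-0.97, SE 0.07, adjusted p = 5.97e-11). In the deep libraries *HMGA1* was not called (0.50, SE 0.05, adjusted p = 5.41e-07). *HMGN5*, another nucleosome-binding protein gene, was the highest in the deep libraries (0.98, SE 0.22, adjusted p = 0.0014) and under siD3 #3 (1.19, SE 0.52, adjusted p = 0.114), where it had 6 to 23 counts, and *HMGN3* was the highest under shD3 #4 (0.25, SE 0.08, adjusted p = 0.0127).

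Of 17 senescence-associated genes, 14 were tested under siD3 #3, where 11 were called higher (12.5% of all genes) and none lower (9.42%). Under shD3 #1, 6 of 11 tested were higher (14.5% of all genes) and 2 lower (14.6%). In the deep libraries 5 of 13 were higher (15.0% of all genes) and 3 lower (14.1%). Under shD3 #4 none of 10 was higher (8.00% of all genes) and 4 were lower (4.50%). These counts depend in part on the filter, since a gene near 0 in the controls was tested only where it was high in the knockdown. *IL1A*, *IL1B* and *IL6* were tested in the first table only under siD3 #3. Of the 10 genes tested in all 4 comparisons, 7 were higher and none lower under siD3 #3, 5 higher and 2 lower under shD3 #1, 4 higher and 1 lower in the deep libraries, and none higher and 4 lower under shD3 #4. *CDKN1A*, the p21 gene, was called higher under siD3 #3 (3.52, SE 0.15, adjusted p = 6.88e-06), shD3 #1 (2.07, SE 0.08, adjusted p = 9.77e-12) and in the deep libraries (1.24, SE 0.05, adjusted p = 5.36e-11). Under shD3 #4 *CDKN1A* was not called (0.20, SE 0.06, adjusted p = 0.0164). It was named after its values were seen. *CDKN2A* and *CDKN2B* had 0 counts in every library. The highest were *IL1A* under siD3 #3, with 0 to 1 counts in the controls and 12 to 45 in the knockdown libraries, and *MMP1* under shD3 #1, with 0 to 1 and 31 to 37 counts. *MMP1* was also the highest in the deep libraries (1 to 2 counts against 8 to 22), and *GLB1* was the highest under shD3 #4 (0.54, SE 0.07, adjusted p = 3.89e-07). The lowest were *CXCL8* under shD3 #4 (-1.40, SE 0.13, adjusted p = 5.04e-09), *IGFBP3* under siD3 #3 (-0.34, SE 0.24, adjusted p = 0.323) and *CXCL1* under shD3 #1 (-1.47, SE 0.09, adjusted p = 1.15e-09) and in the deep libraries (-1.76, SE 0.08, adjusted p = 9.58e-11).

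**Figure D4:**
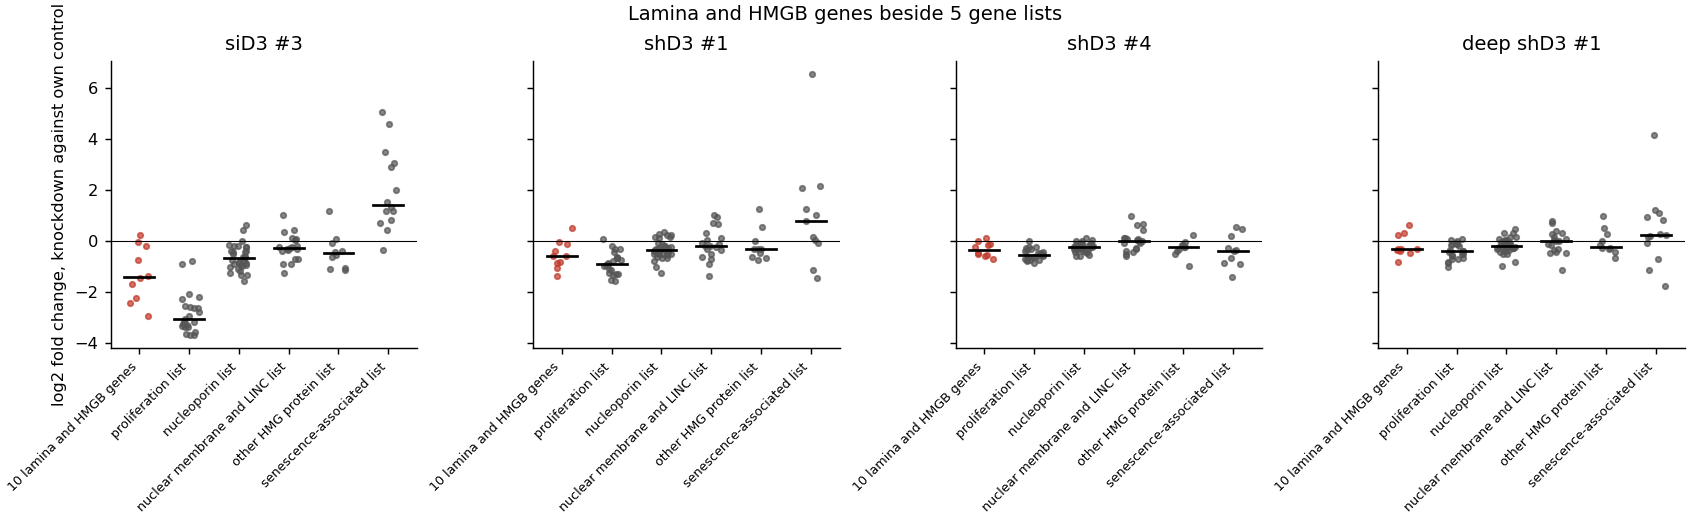
Log2 fold change of the 10 lamina and HMGB genes (red) and of the tested genes of 5 lists (grey) in the 4 comparisons, 1 point per gene, with a black line at each median. The proliferation list has the lowest median in every panel (-3.05 under siD3 #3). The senescence-associated points differ in number between panels, because genes near 0 passed the filter only in some comparisons.

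Across the 17 first libraries, the genes whose log2 levels followed *LMNB1* most closely, among 9910 genes, were *ERCC6L* (Pearson r = 0.996), *MELK* (0.996), *AURKB* (0.995), *NCAPH* (0.995) and *TOP2A* (0.995). Those for *HMGB2* were *DEPDC1B* (0.996), *ZWINT* (0.994), *TTK* (0.994), *ARHGAP11A* (0.994) and *CIP2A* (0.993). All of these libraries fall into knockdown and control groups, so the values of r mainly describe differences between groups. *LMNB1* and *HMGB2* had r = 0.99 with each other, *LMNB1* and *TMPO* 0.989, *LMNB1* and *HMGB1* 0.852, and *LMNB1* and *EMD* 0.276. *LMNA* had negative values with all the other 9 genes, from -0.304 with *HMGB1* to -0.773 with *SUN1*. The genes most like *LMNA* were *TES* (0.937), *GFPT2* (0.935), *TSC22D4* (0.935), *GAB2* (0.933) and *PPP1R18* (0.932), with lower r than the best matches of *LMNB1*.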

How the data were processed

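Gene expression was measured by RNA-seq in 23 A549 libraries. The deposited values are raw counts of reads per gene. According to the submitters' processing notes and the methods, the authors trimmed reads with Trimmomatic 0.40, aligned them to GRCh38.p14 with STAR 2.7.10a and counted them in its gene counting mode against an NCBI RefSeq annotation, although the first table lists Ensembl identifiers. Names, positions and transcript lengths came from GENCODE release 44 on GRCh38 (61757 of 61806 identifiers matched), which may differ from the annotation used in counting. Reads that map to several places are not counted in that mode.

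Each knockdown was compared with its own control in edgeR 4.0.16 (R 4.3.3) with TMM scaling, filterByExpr and the quasi-likelihood test, over all genes passing the filter, with Benjamini-Hochberg adjustment. All 10 genes passed the filter in every comparison. Calls needed an adjusted p under 0.05 and a fold of at least 1.5. Averages and differences came from a joint model of the 17 first libraries. SE is that of the log2 fold change and SD that between libraries. The test was checked on simulated data. Alternatives were DESeq2 1.42.0, other scaling, filters and thresholds, a replicate block and leaving out each library.

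The 10 genes, the lists and the promoter motifs were chosen with earlier results of these data known. Named genes were the 10 genes, *THUMPD3*, the highest and lowest gene of each list per comparison, and the 5 genes most correlated with *LMNB1*, *HMGB2* and *LMNA* (log2 cpm, prior count 2, mean of at least 3). Exceptions are named as such. The number of counts per library limits the precision of low genes.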

Additional observations from a re-analysis of the deposited data

Results flagged for a closer look

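The effect of siD3 #3 differed from that of the shRNAs by the test of the difference itself. Against shD3 #1 the difference in log2 fold change was -1.59 for *HMGB2*, -1.58 for *LMNB1*, -1.39 for *HMGB1*, -1.13 for *TMPO*, -0.79 for *LMNB2* and -0.77 for *LBR*. Against shD3 #4 it was -2.37 for *LMNB1*, -1.88 for *HMGB2*, -1.75 for *TMPO*, -1.11 for *LBR*, -1.11 for *LMNB2*, -0.74 for *HMGB1* and -0.70 for *SUN2*. Between the shRNAs, shD3 #1 minus shD3 #4 was -0.79 for *LMNB1*, -0.73 for *SUN1*, -0.63 for *TMPO*, 0.65 for *HMGB1* and 0.61 for *LMNA*.

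*SUN2* moved in opposite directions in the first and the deep shD3 #1 libraries, with a log2 fold change of -0.39 in the former, where all 3 knockdown libraries were below all 3 controls, and of 0.32 in the latter, where all 3 were above. The difference between the library sets was not tested, because the tables were counted and scaled separately. Groups held at most 3 libraries, so single libraries were not tested as outliers.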

How the results depend on the processing

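Limits: with 2 or 3 libraries a group, genes near the 1.5-fold limit crossed it easily. Of 1380 values recomputed under an alternative setting, 1341 kept their direction and call. Under shD3 #4 the number of genes called lower was 1 in the reported fit, 2 with DESeq2, with no filter beyond 1 count or in 1 fit of all 17 libraries, 4 with total counts without TMM, 0 when tested against the 1.5-fold limit (glmTreat) and 6 with the adjusted p alone. Leaving out 1 library gave 1 to 4 there (4 without sh4Control replicate 3, 3 without shD3 #4 replicate 1, 3 without shD3 #4 replicate 2). For shD3 #1 it gave 4 to 6 lower. With the adjusted p alone 1 gene was higher under shD3 #1, and in the deep libraries 7 were lower and 3 higher. With glmTreat 0 were higher in the deep libraries, and the calls of *LMNA* there, of *HMGB1* under shD3 #4, of *SUN1* under shD3 #1 and of *SUN2* under siD3 #3 were lost. The difference of *TMPO* between the shRNAs was -0.49 with total counts without TMM and was no longer called. The cause was not tested beyond the construction of each setting.

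Genes with small effects changed sign. With total counts without TMM, *HMGB1* under shD3 #1 was 0.0248 and *EMD* in siD3 #3 minus shD3 #1 was -0.0927, and that scaling moved the median of all genes in this difference from 0.03 to -0.14. *EMD* under siD3 #3 was 0.0079 with at least 10 counts in every library. Without 1 library each, *SUN2* under shD3 #4 ranged from -0.0645 to 0.0183, *EMD* under siD3 #3 from -0.113 to 0.0204, *EMD* in siD3 #3 minus shD3 #1 from -0.00655 to 0.156, and *EMD* in shD3 #1 minus shD3 #4 from -0.0272 to 0.12. Same-numbered libraries did not deviate together (r from -0.11 to 0.14), so the replicate block rests on shared numbers alone. With it, *LBR* under shD3 #1 was -0.59 and was called, which made 6 genes lower, and the other counts did not move by over 1.5 times.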

Other observations

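Some genes around the lamina list differed between the shRNAs. *HMGA1*, *SYNE2* and *CXCL8* went opposite ways under them, while *GLE1* and *RCE1* fell under shD3 #1 and stood near 0 under shD3 #4 (-0.07 for each). In the deep shD3 #1 libraries *HMGA1* (0.50) and *SYNE2* (-0.46) kept their direction but were not called. There *CXCL8* was called higher (1.10) and *GLE1* lower (-0.99). *HMGA1* differed by 2.22 in log2 fold change between shD3 #1 and shD3 #4 (SE 0.14, adjusted p = 4.80e-10 in edgeR) and by -1.85 between siD3 #3 and shD3 #1 (SE 0.15, adjusted p = 9.59e-09). The nesprin gene *SYNE2* differed by -2.07 between shD3 #1 and shD3 #4 (SE 0.14, adjusted p = 8.50e-10). *CXCL8*, a chemokine gene, differed by 3.55 (SE 0.33, adjusted p = 4.53e-08), with calls in opposite directions under the shRNAs. *GLE1* was lower under shD3 #1 than under either other knockdown, by -1.20 relative to shD3 #4 (SE 0.11, adjusted p = 2.95e-08), while siD3 #3 minus shD3 #1 was 1.10 (SE 0.11, adjusted p = 2.27e-07). *RCE1* was called lower in the first (log2 fold change -0.98) and the deep shD3 #1 libraries and its change under shD3 #1 differed by -0.92 from shD3 #4 (SE 0.14, adjusted p = 2.08e-05).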
